A study of Mus musculus with 3 samples.

Results

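In mouse calf muscle, 77 genes had a level in the young library that stood apart from both aged libraries, while the aged libraries stood close to each other. The genes were chosen on these values themselves. Levels are CPM, read counts scaled to a common library total, summed by gene symbol. The 3 libraries together gave 12966 of 42225 symbols an average of 1 CPM or more, and these were compared. A gene was taken when young lay at least 2-fold above, or at least 2-fold below, both aged libraries on CPM + 1 and the aged libraries lay within 1.5-fold of each other. Some genes and families were left out by name, such as haemoglobin, immunoglobulin, metallothionein, ribosomal protein and mitochondrially encoded genes. The 77 genes were 0.594% of those compared, with 54 higher in aged muscle and 23 lower. In aged EPA against young, 1.6% of all genes compared differed 2-fold or more, 0.802% upward and 0.802% downward. In aged control against young the share was 1.74%, with 0.895% upward and 0.841% downward. The set was drawn from these same contrasts, so nothing is read from its count against them. Because the levels chose the genes, the differences below are a description and no test is attached to them.

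RNA was taken from the gastrocnemius and plantaris, the large fast muscles of the calf, of male mice. The aged EPA library was pooled from 6 C57BL/6J mice that were 75 weeks old when a diet began that held 1 wt% of the omega-3 fatty acid eicosapentaenoic acid (EPA), and 87 weeks old after 12 weeks of it. The aged control library was pooled from 6 C57BL/6J mice of the same ages on an EPA-deprived diet over the same weeks. The young library was pooled from 3 mice aged 24 weeks, with the strain written as C57BL/7J and no diet given. Age, strain label and the number of pooled mice all differ between the aged groups and young and cannot be told apart, and whether the diet differed too is not known. With 1 pooled library per group there is no replicate, so no value carries an error between mice or between preparations. In whole muscle, fewer cells of a type and less RNA per cell cannot be told apart.

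Recovered depth was 55969822 counts for aged EPA, 57622886 for aged control and 57386394 for young. The 12 muscle fibre markers checked for the labelled tissue were all present and summed to 137026 CPM in aged EPA, 136297 in aged control and 122669 in young. By the same rule, 65 genes had the aged EPA library apart and 70 the aged control library apart, against 77 for young. With no gene left out by name the counts were 68 for aged EPA, 72 for aged control and 88 for young, and with a 1.5-fold limit they were 164 for aged EPA, 169 for aged control and 258 for young. Genes for which 1 library lay above the others were 22 for aged EPA, 22 for aged control and 23 for young.

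**Figure D1:**
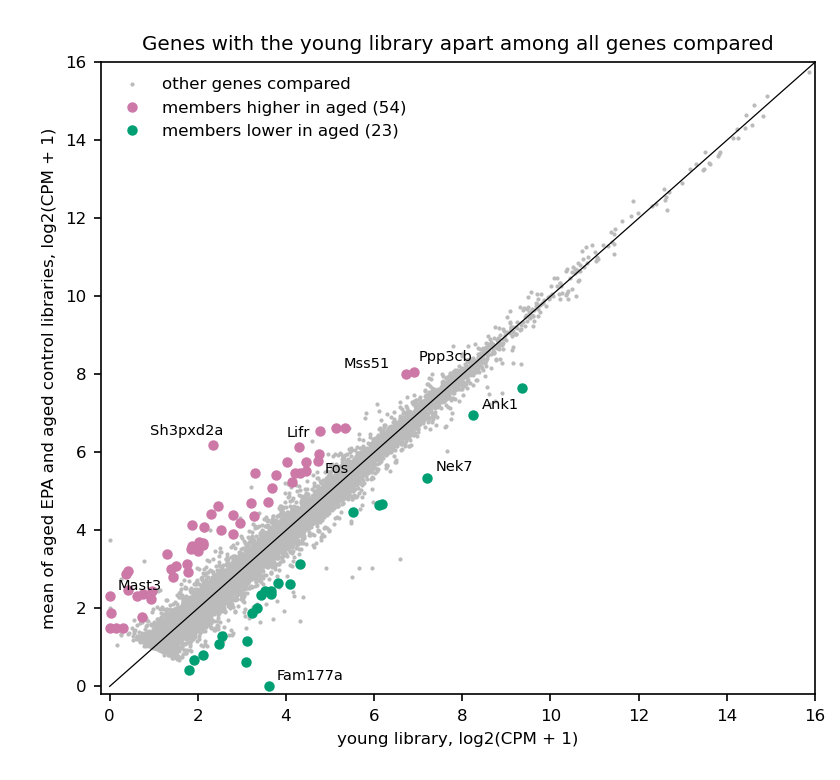
Mean level of the aged EPA and aged control libraries (vertical axis) against the level in the young library (horizontal axis), both as log2(CPM + 1), for the 12966 genes compared. The 54 genes higher in aged and the 23 lower in aged lie on either side of the diagonal of equal level, with Fam177a, listed at 0 in both aged libraries, lying at 0 on the vertical axis.

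Skeletal muscle fibres contract when calcium leaves the sarcoplasmic reticulum. The same calcium activates calcineurin, a phosphatase that acts on transcription factors of fibre type and growth. Other signals reach the fibre through cytokine, growth factor and steroid receptors, and brief bouts of activity or stress induce the immediate early genes Fos and Fosb. The 77 genes come from many such systems, and the descriptions below follow their roles.

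Among calcium genes, the calcineurin gene Ppp3cb was higher in both aged libraries. Ppp3cb encodes the beta form of the catalytic subunit of calcineurin. It stood at 259 CPM in aged EPA, 279 in aged control and 119 in young, so that both aged libraries were more than 2-fold above young. The alpha form, Ppp3ca, had 227 CPM in aged EPA, 237 in aged control and 228 in young, and the regulatory subunit Ppp3r1 had 155 CPM in aged EPA, 169 in aged control and 160.4 in young. Rcan1, a gene induced by calcineurin that also inhibits it, had 116 CPM in aged EPA, 129.8 in aged control and 165 in young, which is the opposite direction to Ppp3cb. The 4 NFAT factors that calcineurin acts on, Nfatc1 to Nfatc4, had log2 changes between -0.16 and 0.61 in aged EPA and between -0.08 and 0.27 in aged control.

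Mss51, the next gene to Ppp3cb, was also higher in aged muscle. It encodes a mitochondrial protein found mainly in skeletal muscle and stood at 227 CPM in aged EPA, 288 in aged control and 105 in young. Both genes lie on the minus strand of chromosome 14 with 2462 bases and no compared gene between them. Their promoters are shown because the genes are neighbours with the same pattern. The sequences are RefSeq's, build GRCm38.p6, from 250 bases before to 50 bases after the start, on the minus strand, at chr14:20546524-20546823 for Ppp3cb and chr14:20496852-20497151 for Mss51. Capitals mark GC boxes (GGGCGG on either strand), of which Ppp3cb has 2, starting 29 and 23 bases before the gene's start, and Mss51 none.
Ppp3cb: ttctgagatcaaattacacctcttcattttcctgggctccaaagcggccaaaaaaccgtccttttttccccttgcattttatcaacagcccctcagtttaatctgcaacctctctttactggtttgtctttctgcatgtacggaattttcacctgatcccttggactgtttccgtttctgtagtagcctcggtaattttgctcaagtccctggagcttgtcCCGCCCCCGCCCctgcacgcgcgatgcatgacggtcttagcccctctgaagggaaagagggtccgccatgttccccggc
Mss51: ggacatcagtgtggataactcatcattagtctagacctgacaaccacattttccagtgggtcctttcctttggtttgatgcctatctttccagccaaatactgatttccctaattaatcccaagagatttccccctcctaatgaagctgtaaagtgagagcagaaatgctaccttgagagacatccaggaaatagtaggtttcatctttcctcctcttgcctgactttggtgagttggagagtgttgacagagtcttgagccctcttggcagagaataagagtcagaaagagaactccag

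Other genes of the fibre lay on both sides. Ank1, whose short muscle form ties the sarcoplasmic reticulum to the sarcomere and whose long form lies under the red cell membrane, stood at 122 CPM in aged EPA, 124 in aged control and 304 in young. Red blood cell markers, 10 on the list, summed to 566 CPM in aged EPA, 561 in aged control and 1511 in young, and 4 of the 5 compared were at least 2-fold lower in both aged libraries. Their part in the Ank1 difference was not tested. Igfn1, which encodes a Z-disc protein, was higher in aged muscle, at 16.6 CPM in aged EPA, 17.6 in aged control and 6.81 in young. Kcnab1, a beta subunit of voltage-gated potassium channels, had 17.9 CPM in aged EPA, 22.4 in aged control and 5.92 in young, and Limch1, which binds actomyosin, had 94.5 CPM in aged EPA, 101 in aged control and 34.4 in young.

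The immediate early genes Fos and Fosb, which pair with Jun proteins to form the factor AP-1, were higher in both aged libraries. Fos stood at 52.5 CPM in aged EPA, 70.96 in aged control and 25.8 in young, and Fosb at 5.604 CPM in aged EPA, 6.44 in aged control and 1.72 in young. The aged control library was the highest for both. Fos was the gene nearest the limit among those higher in aged, with a log2 change of 1.00 in aged EPA and 1.43 in aged control. Of their partners, Jun had 167 CPM in aged EPA, 169 in aged control and 147 in young. Jund had 48.8 CPM in aged EPA, 49.3 in aged control and 44.7 in young. Junb had 44.3 CPM in aged EPA, 34.6 in aged control and 32.4 in young. Its log2 change was 0.44 in aged EPA and 0.09 in aged control. Across 21 compared immediate early genes, 2 were at least 2-fold higher in each aged library, these same 2 genes, and none was 2-fold lower. The list's median log2 change was 0.32 in aged EPA and 0.31 in aged control, against -0.04 and -0.01 over all genes compared.

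The promoters of Fos and Fosb are shown since these 2 genes share a family and a direction. They are RefSeq's, build GRCm38.p6, over the same 300 base window, on the plus strand at chr12:85473640-85473939 for Fos and on the minus strand at chr7:19309996-19310295 for Fosb. Capitals mark GC boxes and a TATA box (TATAAA). Fos has a GC box 74 and a TATA box 33 bases before its start, and Fosb has GC boxes starting 235, 230 and 46 bases before, of which the first 2 share a base.
Fos: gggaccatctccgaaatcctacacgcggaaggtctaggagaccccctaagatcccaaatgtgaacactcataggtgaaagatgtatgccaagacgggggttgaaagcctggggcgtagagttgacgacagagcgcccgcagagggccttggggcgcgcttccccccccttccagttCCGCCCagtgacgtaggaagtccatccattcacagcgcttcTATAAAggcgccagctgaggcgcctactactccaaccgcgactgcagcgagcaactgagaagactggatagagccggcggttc
Fosb: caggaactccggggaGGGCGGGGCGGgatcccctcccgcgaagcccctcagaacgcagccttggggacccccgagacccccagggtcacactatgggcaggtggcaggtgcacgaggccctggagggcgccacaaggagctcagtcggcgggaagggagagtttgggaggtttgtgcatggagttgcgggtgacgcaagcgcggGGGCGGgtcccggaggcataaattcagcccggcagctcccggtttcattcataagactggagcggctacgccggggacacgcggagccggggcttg

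Motifs were counted in the promoters of the 43 genes higher in aged and the 11 lower in aged that matched a RefSeq entry, and in those of 9692 genes compared, on both strands. GC boxes were in 72.1% of the promoters higher in aged, 54.5% of those lower in aged and 68.7% of all. CCAAT was in 34.9% of those higher in aged, 63.6% of those lower in aged and 42.6% of all, and TATAAA in 13.95% of those higher, 9.09% of those lower and 9.08% of all. The cyclic AMP element TGACGTCA was in 4.65% of promoters higher in aged, none of those lower in aged and 3.58% of all. The AP-1 element TGANTCA was in 4.65% of those higher, none of those lower and 6.11% of all. The E-box CACGTG was in 16.3% of those higher, 18.2% of those lower and 11.9% of all. AGAACA, a half-site of steroid receptors, was in 18.6% of those higher, 9.09% of those lower and 14.6% of all, and GGTGTG in 25.6% of those higher, 36.4% of those lower and 20.4% of all. With 11 promoters lower in aged, 1 promoter moves a share by 9.09 percentage points.

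Receptor genes in the set included Lifr and Met on the higher side and Adgra2 on the lower. Lifr, the receptor for leukaemia inhibitory factor, stood at 67.2 CPM in aged EPA, 71.8 in aged control and 18.8 in young, so that young was the low library. Il6st, which encodes the gp130 chain that Lifr signals with, had 168 CPM in aged EPA, 85.2 in aged control and 82.8 in young, and was thus high in the aged EPA library alone. Met, the receptor of hepatocyte growth factor, had 13.6 CPM in aged EPA, 14.4 in aged control and 5.96 in young. Its ligand gene Hgf was at or below 0.11 CPM in every library. Cav1, the main caveolin of caveolae, lies next to Met on chromosome 6, with 122347 bases and no compared gene between them, and had 42.3 CPM in aged EPA, 44.9 in aged control and 17.5 in young.

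Caveolins Cav2 and Cav3 did not share the pattern of Cav1. Cav3, the muscle caveolin, had 31.1 CPM in aged EPA, 29.8 in aged control and 34.9 in young, and the 4 cavin genes had log2 changes between -0.35 and 0.00. Endothelial cells are rich in Cav1, and their 12 markers summed to 495 CPM in aged EPA, 538 in aged control and 641 in young, and the list's median log2 change was -0.35 in aged EPA and -0.27 in aged control. By sum and by median the endothelial markers stood in the opposite direction to Cav1, and their part in its difference was not tested. Adgra2, an adhesion receptor that acts with Reck in Wnt signalling of brain endothelium, was lower in aged muscle, with 4.25 CPM in aged EPA, 3.90 in aged control and 9.80 in young. Here the endothelial markers stood in the same direction, and their part was not tested.

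Among kinases and adaptors, Nek7 was lower in both aged libraries. Genes lower in aged with a descriptive symbol were ranked by the smaller of their aged EPA and aged control log2 changes. Nek7 came next after Fam177a by that measure. In aged EPA alone, Zfp74 lay further from young, with a log2 change of -2.09 against -1.85 for Nek7. Nek7, a kinase of mitotic spindles that also serves the NLRP3 inflammasome, stood at 39.9 CPM in aged EPA, 40.03 in aged control and 147 in young. Its close relative Nek6 had 24.8 CPM in aged EPA, 25.8 in aged control and 22.5 in young, and Nek9, which activates both, 189 CPM in aged EPA, 195 in aged control and 164 in young. Mast3, a microtubule-associated kinase, had 3.48 CPM in aged EPA and 4.55 in aged control and was listed at 0 in young. Mast2 had 139.5 CPM in aged EPA, 143 in aged control and 139 in young. Mast4 had 59.3 CPM in aged EPA, 59.3 in aged control and 59.8 in young, so that neither Mast2 nor Mast4 differed by as much as 1.2-fold. Ywhaq, the theta form of the 14-3-3 adaptors, had 24.6 CPM in aged EPA, 25.8 in aged control and 8.24 in young, while the other 6 forms had log2 changes between -0.27 and 0.18. Pip5k1a, which makes the membrane lipid phosphatidylinositol bisphosphate, had 42.8 CPM in aged EPA, 44.04 in aged control and 18.8 in young, and Abi3, an adaptor of actin assembly, was lower, with 7.48 CPM in aged EPA, 8.13 in aged control and 18.9 in young.

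The podosome scaffold gene Sh3pxd2a had the largest log2 change of CPM + 1 in the set. Sh3pxd2a (chromosome 19, 47260174 to 47464401) encodes a scaffold of actin-rich protrusions that break down matrix, and stood at 70.2 CPM in aged EPA, 72.8 in aged control and 4.07 in young. Its log2 count ratio was 4.12 in aged EPA (95% counting interval 3.93 to 4.32) and 4.12 in aged control (3.93 to 4.31). These intervals are exact Clopper-Pearson and cover counting error only. Its paralogue Sh3pxd2b had 8.60 CPM in aged EPA, 10.3 in aged control and 8.56 in young. Of 15 compared podosome and adhesion genes, Sh3pxd2a alone was 2-fold apart, and their median log2 change was 0.01 in aged EPA and 0.11 in aged control. Mtss2, which bends membranes at actin structures, was lower, with 24.9 CPM in aged EPA, 24.04 in aged control and 71.9 in young, against 22.1 CPM in aged EPA, 23.5 in aged control and 17.9 in young for its paralogue Mtss1.

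**Figure D2:**
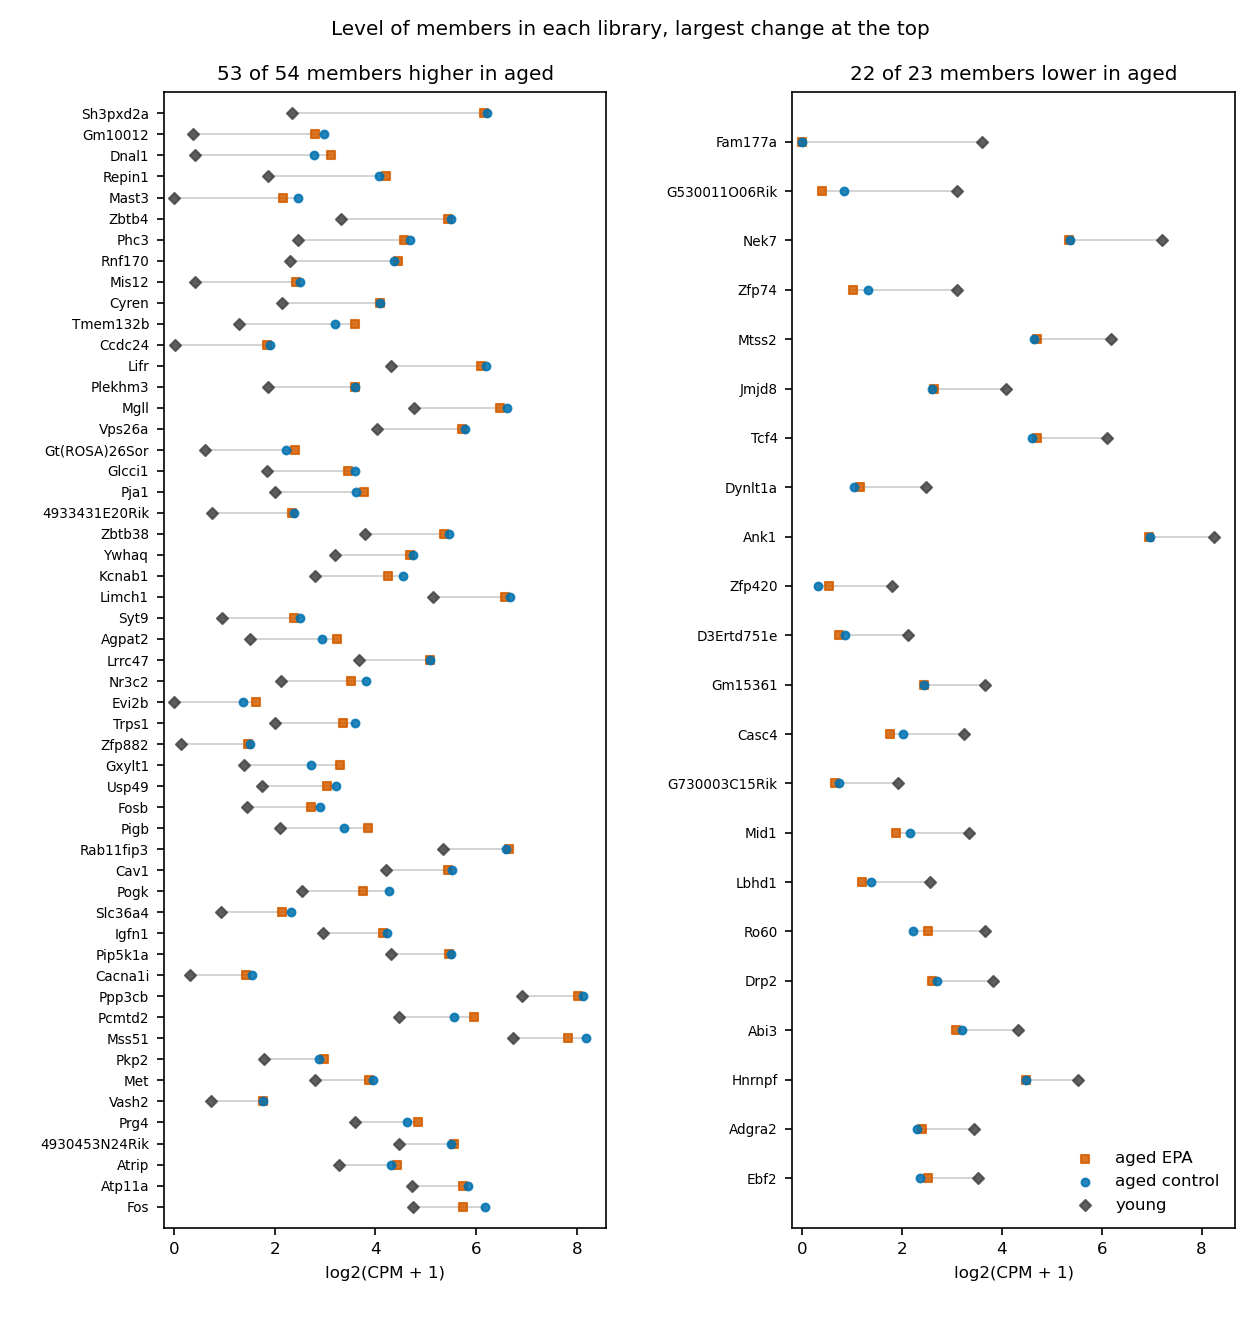
Level of 75 of the 77 genes, 53 higher and 22 lower in aged, as log2(CPM + 1) in the aged EPA (squares), aged control (circles) and young (diamonds) libraries, one point per library. Both aged points lie together on one side of the young point by construction, from the smallest gaps at the bottom (Fos and Ebf2) to the largest at the top (Sh3pxd2a and Fam177a).

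Genes of transcription and chromatin stood on both sides. Phc3, a polyhomeotic subunit of Polycomb repressive complex, stood at 22.8 CPM in aged EPA, 24.7 in aged control and 4.48 in young. Its paralogue Phc1 had 26.6 CPM in aged EPA, 27.1 in aged control and 23.8 in young, and Phc2 had 23.7 CPM in aged EPA, 22.5 in aged control and 26.2 in young. Of 23 Polycomb genes compared, Phc3 was the only one 2-fold apart from young in either aged library. Zbtb4 and Zbtb38, zinc finger proteins that bind methylated DNA, were higher in aged. Zbtb4 had 42.4 CPM in aged EPA, 44.3 in aged control and 8.91 in young, and Zbtb38 had 40.2 CPM in aged EPA, 43.2 in aged control and 12.8 in young. Zbtb33, the third of that family, stood in the same direction by less, at 7.83 CPM in aged EPA, 8.39 in aged control and 4.56 in young.

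Repin1, another zinc finger gene, had 17.4 CPM in aged EPA, 15.8 in aged control and 2.66 in young, and Pogk, a KRAB-domain gene, had 12.5 CPM in aged EPA, 18.4 in aged control and 4.801 in young. On the lower side, the zinc finger genes Zfp74 and Zfp420 lie 53522 bases apart on chromosome 7 with 2 compared genes between them. Zfp74 had 1.03 CPM in aged EPA, 1.51 in aged control and 7.61 in young, and Zfp420 had 0.446 CPM in aged EPA, 0.244 in aged control and 2.50 in young. A zinc finger set of 362 compared genes was made after these values were seen, from symbols beginning with Zfp, Zbtb, Zkscan or Zscan. Repin1, itself among the genes higher in aged, was added to it by hand. Of these 362, 4 were among those higher in aged, Repin1 included, and 2 among those lower. That is 1.66% against 0.594% of all genes compared, and with a gene of the set added by hand nothing is read from it. Tcf4, an E protein that pairs with tissue-specific factors such as MyoD, stood at 25.1 CPM in aged EPA, 23.4 in aged control and 67.8 in young. Of the other E proteins, Tcf3 had 13.003 CPM in aged EPA, 12.2 in aged control and 13.3 in young, and Tcf12 had 29.3 CPM in aged EPA, 32.2 in aged control and 29.03 in young. Ebf2, a factor of brown fat and other mesenchyme, was the gene nearest the limit among those lower, with 4.71 CPM in aged EPA, 4.14 in aged control and 10.5 in young.

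Vesicle and lipid genes higher in aged muscle included Vps26a, Rab11fip3, Mgll and Atp11a. Vps26a, a subunit of the retromer that returns receptors from endosomes, stood at 51.5 CPM in aged EPA, 54.1 in aged control and 15.4 in young. The remaining retromer genes Vps26b, Vps29 and Vps35 had log2 changes between -0.18 and 0.03 in both comparisons. Rab11fip3, which links Rab11 vesicles to motors, had 98.8 CPM in aged EPA, 95.8 in aged control and 39.6 in young, and Rab11a had 32.6 CPM in aged EPA, 36.6 in aged control and 34.8 in young. Mgll, the lipase that cleaves monoacylglycerols, had 87.8 CPM in aged EPA, 96.5 in aged control and 26.4 in young. Of the lipases that act before it in fat breakdown, Pnpla2 had 297 CPM in aged EPA, 253 in aged control and 324 in young, and Lipe had 45.5 CPM in aged EPA, 33.3 in aged control and 43.1 in young. Adipocyte markers summed to 513 CPM in aged EPA, 464 in aged control and 618 in young. Their median log2 change was -0.04 in aged EPA, with 4 of 10 above 0, and -0.44 in aged control, with 2 of 10 above 0, and their part was not tested. Atp11a, a flippase of the plasma membrane, had 52.7 CPM in aged EPA, 55.98 in aged control and 25.5 in young.

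On the lower side of trafficking were Casc4, which encodes a Golgi membrane protein, with 2.37 CPM in aged EPA, 3.06 in aged control and 8.39 in young, and Dynlt1a, a light chain of cytoplasmic dynein, with 1.22 CPM in aged EPA, 1.04 in aged control and 4.60 in young. The other Dynlt1 copies Dynlt1b, Dynlt1c and Dynlt1f were also lower in aged, by log2 changes between -0.28 and -0.72, and reads shared by these copies make the level of each uncertain. Dnal1, a light chain of the dynein of cilia, was higher, with 7.64 CPM in aged EPA, 5.91 in aged control and 0.339 in young.

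Ubiquitin, DNA and RNA genes added further members. Rnf170, a ubiquitin ligase of the endoplasmic reticulum that marks inositol trisphosphate receptors for degradation, stood at 20.9 CPM in aged EPA, 19.8 in aged control and 3.93 in young. The receptor genes Itpr1, Itpr2 and Itpr3 had log2 changes between -0.13 and 0.20 in aged EPA and between 0.14 and 0.31 in aged control. Cyren, an inhibitor of DNA end joining through Ku, had 16.1 CPM in aged EPA, 15.9 in aged control and 3.41 in young, and Xrcc5 and Xrcc6, the Ku genes, had log2 changes between 0.03 and 0.29. Atrip, the partner of the kinase ATR at DNA damage, had 20.5 CPM in aged EPA, 18.9 in aged control and 8.74 in young, while Atr had 6.57 CPM in aged EPA, 6.45 in aged control and 7.67 in young. Mis12, a kinetochore gene, had 4.39 CPM in aged EPA, 4.68 in aged control and 0.336 in young. Hnrnpf, a splicing factor, was lower at 21.3 CPM in aged EPA, 21.2 in aged control and 45.2 in young, and its relatives Hnrnph1, Hnrnph2 and Hnrnph3 had log2 changes between -0.32 and 0.06. Pcmtd2, a relative of protein repair methyltransferases, had 60.97 CPM in aged EPA, 46.5 in aged control and 21.04 in young. Its paralogue Pcmtd1 had 68.6 CPM in aged EPA, 25.6 in aged control and 23.4 in young and was high in aged EPA alone.

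Genes known mainly from stromal and other cells were fewer. Prg4, the lubricin gene of joints and tendon, had 27.7 CPM in aged EPA, 23.9 in aged control and 11.1 in young, and the 9 tendon markers summed to 380.3 CPM in aged EPA, 379 in aged control and 329.7 in young. The tendon markers stood in the same direction as Prg4, with a median log2 change of 0.29 in aged EPA and 0.28 in aged control, and their part was not tested. Macrophage markers summed to 382 CPM in aged EPA, 370.1 in aged control and 357 in young. T and NK cell markers summed to 1.4497 CPM in aged EPA, 1.23 in aged control and 0.810 in young, with Cd3d and Cd8b1 listed at 0 in every library. None of the 77 genes is on any of the cell marker lists. For red blood cells this follows from the rule, since the haemoglobin genes on that list met the limits and were left out by name.

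The remaining genes with a value of their own are less well understood. Fam177a was listed at 0 in both aged libraries and had 11.2 CPM, or 642 counts, in young. Its paralogue Fam177a2 had 5.23 CPM in aged EPA, 7.25 in aged control and 5.02 in young, and reads shared by both copies make their assignment uncertain. Jmjd8 had 5.25 CPM in aged EPA, 5.07 in aged control and 15.98 in young. Tmem132b had 11.01 CPM in aged EPA, 8.18 in aged control and 1.453 in young, and Plekhm3 had 11.1 CPM in aged EPA, 11.1 in aged control and 2.66 in young. Lrrc47 had 32.96 CPM in aged EPA, 33.04 in aged control and 11.8 in young. Ccdc24 had 2.62 and 2.77 CPM in aged EPA and aged control and 1 count in young. By counting error alone, its log2 count ratio in aged EPA lies between 4.75 and 12.6 (95% counting interval). Ccdc24 shares 1417 exon bases with B4galt2 on the same strand and 1429 with Slc6a9 on the other strand. Both stood above Ccdc24 in every library. Reads in the shared bases make the level of Ccdc24 uncertain in a way the interval does not cover. Of the 77 genes, 7 are gene models without a descriptive symbol, 3 higher and 4 lower in aged.

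Another 17 genes higher in aged had between 1.71 and 13.5 CPM in aged EPA, between 1.59 and 13.1 CPM in aged control and between 0 and 3.34 CPM in young. They include Nr3c2, the mineralocorticoid receptor, Trps1, a GATA-type repressor, Glcci1, Agpat2, an acyltransferase of fat synthesis, Pigb and Gxylt1, which add sugars to membrane anchors and to Notch, the ubiquitin genes Pja1 and Usp49, Cacna1i, a T-type calcium channel, Syt9, Slc36a4, Pkp2, Vash2, Zfp882, Evi2b and the noncoding Gt(ROSA)26Sor. Their log2 changes lay between 1.04 and 1.89 in aged EPA and between 1.05 and 1.75 in aged control. The other 4 genes lower in aged were Drp2, a relative of dystrophin found in Schwann cells, Lbhd1, Mid1 and the RNA-binding gene Ro60. They had between 1.3001 and 5.10 CPM in aged EPA, between 1.59 and 5.50 CPM in aged control and between 4.85 and 13.2 CPM in young. Schwann cell and nerve markers summed to 226 CPM in aged EPA, 204 in aged control and 205 in young. These sums were close to equal where Drp2 was not, and their part was not tested.

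Few paralogues and partners of the set were themselves far from young, as was so of genes at large. Related genes were listed for 46 of the 77 genes after their values were seen, 126 in all, and 104 were compared. None was at least 2-fold apart from young in both aged libraries, and Il6st and Pcmtd1 were the 2 (1.92%) that were so in either, both in aged EPA. Over all genes compared, 0.725% were 2-fold apart in both and 2.61% in either. Of the 104, 98 lay within 1.5-fold of young in both comparisons and 66 (63.5%) within 1.2-fold, against 60.7% of all genes compared. The 65 paralogues among them had a median log2 change of 0.02 in aged EPA and 0.05 in aged control. These related genes thus stood about where genes at large stood, also those of strongly differing genes such as Sh3pxd2a and Nek7. By the smaller of their aged EPA and aged control changes, the closest to an exception were Zbtb33 and Dynlt1b, in the direction of Zbtb4 and Dynlt1a. In aged EPA alone Il6st (1.02) and Pcmtd1 (1.51) went further, in the direction of Lifr and Pcmtd2.

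**Figure D3:**
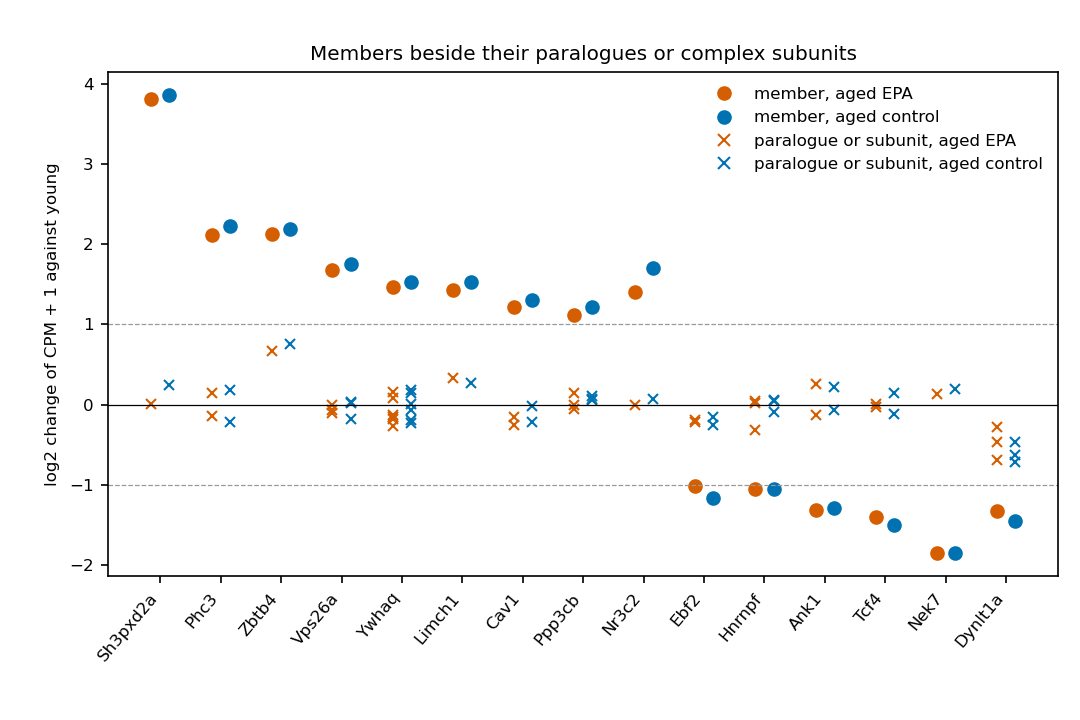
Log2 change of CPM + 1 against young for 15 genes of the set (filled circles) and for their compared paralogues or complex subunits (crosses), with aged EPA in orange left of aged control in blue. Dashed lines mark 2-fold. The families were chosen after the values were seen, and no cross passes a dashed line, as was so for all 65 paralogues but Pcmtd1, which is not drawn.

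Where overlapping genes share exon bases, reads there can be counted for either, since the sources used here do not state how the counting treated strand. Of the 77 genes, 26 overlap another gene that had over 0.5 CPM in some library. They were 29.6% of the genes higher in aged and 43.5% of those lower, against 24.7% of all genes compared. For 29 such pairs with a mean of at least 1 CPM for the overlapping gene, 27 share exon bases. In 5 of these 29 pairs the overlapping gene was 2-fold apart from young in either aged library, against 2.61% of all genes compared. In none was the overlapping gene 2-fold apart in both in the direction opposite to the gene of the set. The 2 pairs with the same direction in both are 1 pair counted from each side, Mid1 and a gene model within it. Both are genes of the set and so 2-fold apart by the rule. They are among the 5 from each side, so nothing is read from that number. Within 2000 bases but without overlap, 22 further pairs held no neighbour 2-fold apart.

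The summed level of such a pair varied between libraries to different degrees. Mis12 and Derl2, a gene on the other strand that shares 231 exon bases with it, summed to 17.0 CPM in aged EPA, 16.9 in aged control and 16.6 in young, a spread of 1.02-fold from the lowest to the highest sum. Derl2 alone had 12.6 CPM in aged EPA, 12.2 in aged control and 16.2 in young, which was most of each sum. The longest annotated transcript of Mis12 has 3003 bases, against the 231 shared. Zfp882 and Zfp617 summed to 19.1 CPM in aged EPA, 19.02 in aged control and 18.2 in young, a spread of 1.05-fold. Zfp617 alone had 17.3 CPM in aged EPA, 17.2 in aged control and 18.1 in young. It made up most of each sum, so the near equal sums say little of Zfp882. Evi2b, a gene of blood cells, had 2.11 CPM in aged EPA and 1.59 in aged control and was listed at 0 in young. Evi2, which shares 1831 exon bases with Evi2b on the same strand, had 0.195 CPM in aged EPA, 1.40 in aged control and 2.78 in young, and the sums were 2.30 CPM in aged EPA, 2.998 in aged control and 2.78 in young, a spread of 1.303-fold. In these pairs, and in those that follow, the level of each gene is uncertain.

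Cyren and Tmem140 share 2168 exon bases and summed to 78.1 CPM in aged EPA, 70.8 in aged control and 54.6 in young, a spread of 1.43-fold. Jmjd8 and Stub1 share 1084 exon bases and summed to 72.4 CPM in aged EPA, 65.3 in aged control and 78.4 in young, a spread of 1.2004-fold. Tmem140 and Stub1 made up most of each of these sums. Atrip and Trex1 share 1147 exon bases and summed to 23.2 CPM in aged EPA, 21.4 in aged control and 10.4 in young, a spread of 2.23-fold. Abi3 shares 2913 exon bases with Zfp652, which was itself far from equal, with 92.1 CPM in aged EPA, 149.9 in aged control and 54.8 in young. Mid1, a ubiquitin ligase gene at the end of the X chromosome that crosses the pseudoautosomal boundary in laboratory mice, had 2.65 CPM in aged EPA, 3.48 in aged control and 9.12 in young. A noncoding gene model that shares 951 exon bases with it had 0.321 CPM in aged EPA, 0.783 in aged control and 7.55 in young.

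**Figure D4:**
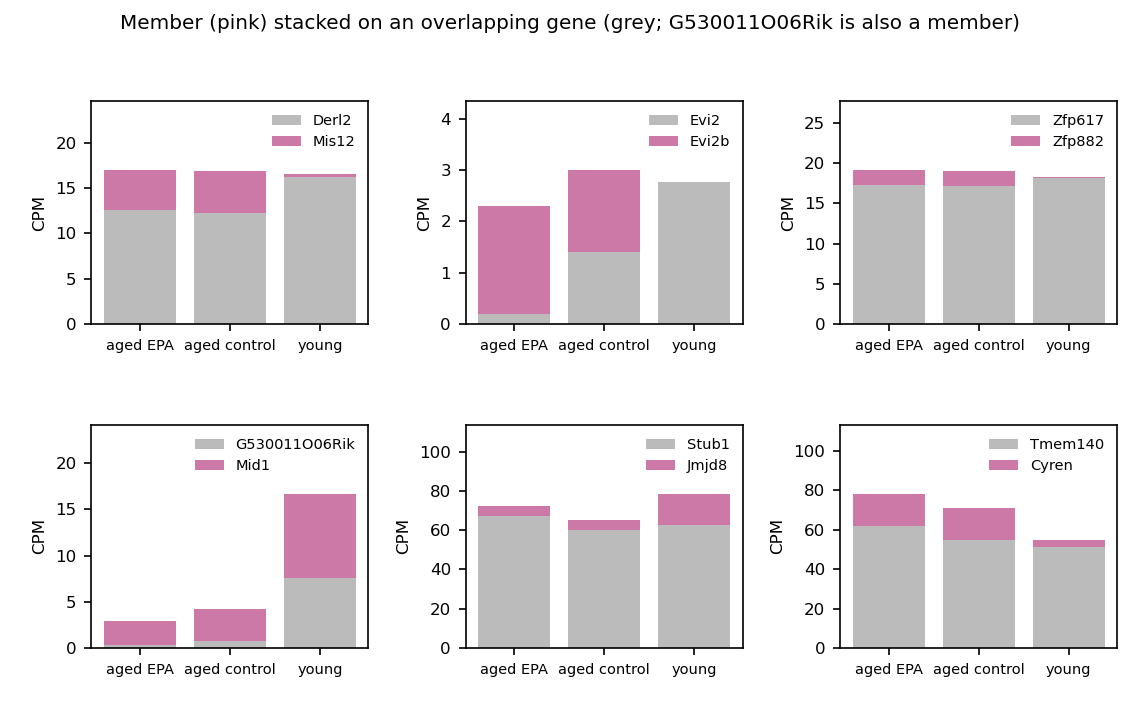
CPM of 6 genes of the set (pink) stacked on a gene that shares exon bases with each (grey) in the aged EPA, aged control and young libraries. The pairs were chosen after the values were seen. Stacked heights are near equal for Mis12 with Derl2 (17.0 CPM in aged EPA, 16.9 in aged control and 16.6 in young). They are also near equal for Zfp882 with Zfp617, and Derl2 and Zfp617 make up most of each of these heights. Heights are unequal for Mid1 with its overlapping gene model, which is in the set too.

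Median transcript length was higher in the set than over all genes compared. The longest annotated transcript had a median of 4314 bases for genes higher in aged and 4006 bases for genes lower in aged, against 3302.5 bases over all genes compared. With all genes split by this length into 5 bins of nearly equal size, genes higher in aged numbered 3, 6, 12, 8 and 25 from the shortest to the longest bin, and genes lower in aged 1, 4, 4, 8 and 6. Over all genes, the median log2 change in aged EPA against young was -0.10 in the shortest bin and -0.02 in the longest, and in aged control against young -0.12 in the shortest and 0.07 in the longest. In aged EPA the medians outside the shortest bin lay between -0.03 and -0.02. The drift is upward with length, while genes higher and genes lower in aged both had a longer median transcript than all genes compared. Any part of length in either group was not tested. Median GC content of the longest transcript was 47.7% for genes higher in aged, 45.4% for genes lower in aged and 49.9% over all.

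**Figure D5:**
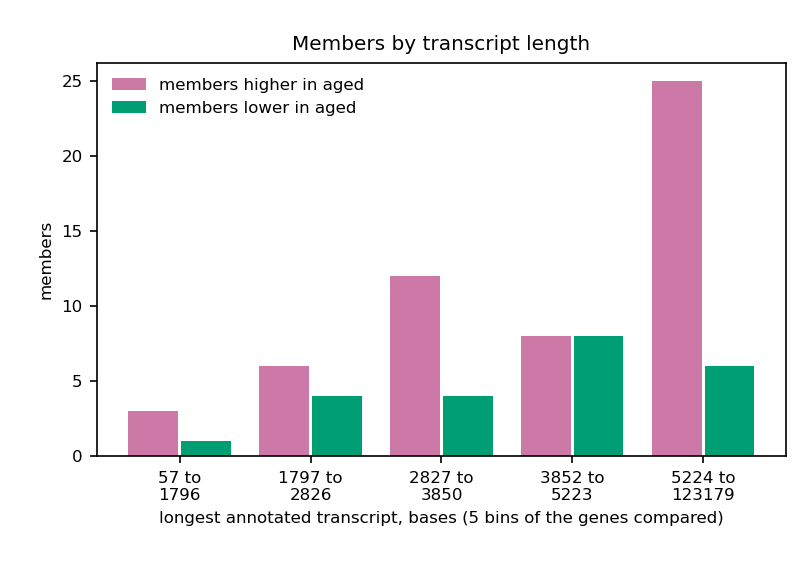
Number of genes of the set in each of 5 bins of the 12966 genes compared, ordered by the length of the longest annotated transcript in bases (horizontal axis), with genes higher in aged in pink and lower in aged in green. The longest bin holds 25 genes higher in aged and 6 lower.

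Protein-coding genes made up 51 of the 54 genes higher in aged and 20 of the 23 lower, against 92.1% of all genes compared. On the X chromosome lay 1 gene higher and 4 lower in aged, together 1.18% of the 425 genes compared there. The 4 lower include both Mid1 and the gene model that shares 951 exon bases with it, so that locus is counted more than once. Chromosome 1 held 9 of the set among 796 genes compared (1.13%), chromosome 6 held 8 among 642 (1.25%) and chromosome 8 held 8 among 696 (1.15%), against 0.594% over all chromosomes. Chromosome 13 held none among 458. The share of genes in the set was 0.695% below 5 CPM on average, 0.629% from 5 to 20 CPM and 0.495% at 20 CPM or more, so the set was not confined to low levels. The highest library of every gene in the set had at least 107 counts. In 74 of the 77 genes the 95% counting interval of the log2 count ratio lay on one side of 0 in both comparisons, and in the other 3 (Fam177a, Mast3 and Evi2b) a library had no count. The set was chosen for a 2-fold gap in these same counts, so nothing is read from that number.

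The rule kept the aged libraries within 1.5-fold, so the difference between diets is bounded in these genes. Among genes higher in aged, 19 stood above and 35 below aged control in the aged EPA library, with a median log2 change of -0.06. Among genes lower in aged, 9 stood above, 13 below and 1 was equal at 0, with a median of -0.01. Over all genes compared the median was -0.03, with 44.2% above 0. The aged libraries lay within 1.2-fold of each other for 60 of the 77 genes, against 80.95% of all genes compared. Between aged EPA and aged control, 1.33% of all genes compared were at least 2-fold apart in either direction. The widest gaps between diets were those of Gxylt1, with a log2 change of 0.57 in aged EPA against aged control, and Pogk, with -0.53.

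At the limit of the rule, genes just inside and just outside differed little. Fos and Mib1 both had a smaller log2 change that rounds to 1.00, and Fos lay inside and Mib1 outside. Next inside on the higher side were Atp11a (1.02), Atrip (1.03) and 4930453N24Rik (1.03), and next outside AI593442 (1.00), Mpzl3 (0.99) and Ip6k1 (0.98). On the lower side, Ebf2 (-1.01), Adgra2 (-1.04), Hnrnpf (-1.05) and Abi3 (-1.12) lay inside, and Frg2f1 (-0.94), Inpp5k (-0.91), 4931428F04Rik (-0.87) and Ncoa2 (-0.86) outside. Another 11 genes met the limits and were left out by name, 4 of them higher and 7 lower in aged. The higher ones were Carns1, Srxn1, Ighg2c and Igkc, and the lower ones the 4 haemoglobin genes, Mt1, Mt2 and mt-Ts1. In 6 more, young lay 2-fold past both aged libraries but these lay more than 1.5-fold apart: Ube2l3, Traf3, Coa7, Fsd1l and 2 noncoding genes.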

How the data were processed

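One RNA-seq library per group was sequenced from pooled total RNA. The authors deposited CPM per Ensembl gene, made with HISAT2 2.1.0, StringTie 1.3.4d and R 3.5.0 on build GRCm38, per the submitters' processing notes; the roles of these tools and the strandedness of counting are not given in the sources used here. Each value was a whole count divided by 1 of 5 divisors between 56034275 and 57687235 (largest distance from a whole number 3.0268e-09), so the deposited values lay -2.98% to 2.84% from those that a library's own total would give, and counts could be recovered for intervals.

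CPM were used as deposited, in Python 3.11.15 with pandas 2.3.3, and summed by symbol (63 of 42258 rows repeat one). Changes are log2 ratios of CPM + 1, which understate changes of low genes. Log2 count ratios use recovered counts and the total of the library itself. No test was possible with 1 library per group. Steps were tested on simulated data. Overlaps, lengths and GC content come from GENCODE M21 (GRCm38) and promoters from RefSeq.

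The genes, lists and comparisons were chosen with earlier results of these data known. Values are given for the 15 genes per direction with the largest smaller change, those with a mean of at least 10 CPM, those near the limit and those on a list, except a few not reported here; Evi2b, Zfp882 and Mid1 were added after their values were seen, as were the related genes, the zinc finger set and the pairs and families drawn. Alternatives were pseudocounts of 0.1 and 5, other filters, scalings and limits, and other treatments of repeated symbols and left-out names.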

Additional observations from a re-analysis of the deposited data

How the results depend on the processing

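Of 108 recomputed counts, 71 lay within 1.5 times the reported count and 37 did not. With a pseudocount of 0.1, the set held 119 genes (85 higher in aged), and genes 2-fold from young numbered 166 higher and 182 lower in aged EPA and 173 lower in aged control. With a pseudocount of 5, it held 33 (24 higher, 9 lower), with 24 genes apart in aged EPA alone, 38 in aged control alone, 52 higher and 42 lower in aged EPA, and 57 higher and 47 lower in aged control. At a mean of at least 5 CPM, 14 were lower in aged, 41 were apart in aged EPA alone, 46 in aged control alone, and 65 in aged EPA and 68 in aged control were 2-fold lower. A 1.5-fold limit gave 258 (164 higher, 94 lower), 164 and 169 apart in aged EPA and aged control alone, 311 higher and 384 lower in aged EPA, and 349 higher and 330 lower in aged control. A 3-fold limit gave 25 (20 higher, 5 lower), 19 and 33 apart in aged EPA and aged control alone, 40 higher and 33 lower in aged EPA, and 39 higher and 39 lower in aged control. Fewer genes pass by construction under a larger limit, pseudocount or filter. Other scalings and the highest row of a repeated symbol gave 77 to 95 genes, of which 74 to 77 were in the reported set. For single genes, 770 changes were recomputed and none changed sign. None could, since another pseudocount keeps the sign and the scalings moved levels by far less than 2-fold, so nothing is read from that. Against the counting interval put on the CPM + 1 scale (to the floor of 3 counts for a library with none), 540 lay inside and 230 outside, and a change with another pseudocount is on another scale than that interval. Of 260 list medians, 258 moved by less than 0.1 on the log2 scale and 2 by more. No paired analysis was possible because each group is a single library. Counting error is largest for genes with few counts in a library, such as Ccdc24 with 1 count in young. It leaves out the uncertain assignment of reads where genes share exon bases, as Ccdc24 does. The spread between mice and preparations is unknown.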
